A study of Mus musculus with 18 samples.

Results

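The 71 mature miRNAs described here belong to the miR-297, miR-466, miR-467 and miR-669 families of the mouse, most of which are copies of 1 repeated hairpin unit inside the gene Sfmbt2. They were chosen by name and by their measured count: a row of the deposited table became a member when its miRNA name carried 1 of these 4 family numbers and when it had at least 1 count over the 18 libraries. Of 80 such rows, 71 passed and 9 had no count. The table listed 1978 mature miRNAs, 1054 of them with a count, among 203513 features in all. By family, 6 of 6 listed miR-297 rows, 28 of 31 miR-466 rows, 11 of 13 miR-467 rows and 26 of 30 miR-669 rows had a count. Because members were selected on detection, the 7 members with a single count stood just inside the limit and the 9 rows without a count just outside it.

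Small RNA was sequenced from cell fractions of mouse brain at 10 months of age, from wild-type (WT) mice and from mice homozygous for Atxn2-CAG100-KIN (KIN), a knock-in of an expanded CAG repeat into Atxn2 that models spinocerebellar ataxia type 2 on a C57BL/6 background. Per the study's methods each brain was dissociated and passed over magnetic beads, first against CD11b for microglia and then against ACSA-2 for astrocytes, and the unlabelled flow-through that was left after other cells had been depleted served as the neuronal fraction. There were 3 libraries for each of the 6 groups (astrocytes, microglia and neurons, WT and KIN). The comparisons ask how the members differed between KIN and WT in each fraction, whether the glial fractions differed in that respect, and how the fractions differed in WT.

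MiRNAs are cut from hairpin transcripts, and a hairpin can release a mature strand from its 5p arm and another from its 3p arm. Bases 2 to 8 of the mature strand form the seed, which pairs with target messenger RNAs inside an Argonaute complex. Sfmbt2 codes for a Polycomb group protein, is an imprinted gene read from the paternal allele, and carries in an intron a large miRNA cluster of rodents that is best known from the placenta.

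In the GRCm39 annotation, the build that mm39 also names, 82 hairpins carried the 4 family names. Of these, 72 lay in intron 10 of Sfmbt2 (22 introns in its canonical transcript, with Sfmbt2 at chromosome 2, 10375306 to 10600064, plus strand), all on the plus strand, between positions 10471474 and 10523090, a span of 51617 bases within an intron of 62472 bases. The other 10 hairpins were spread over 7 chromosomes. When mature sequences were matched to these hairpins, 65 members were found in at least 1 of the Sfmbt2 hairpins and held 93.3% of all member counts, while 6 members were found only in a hairpin elsewhere. These 6 included miR-466i-3p (138 counts) and miR-466i-5p (53 counts), and the hairpin Mir466i lies on chromosome 13. Since 35 members matched several Sfmbt2 hairpins, and 1 sequence up to 14 of them, a count mostly cannot be traced to a single hairpin.

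The sequences that carry most of the counts are shown because the copies differ by so little. They are written as in the deposited table (T for U), 5′ to 3′, with the seed in capitals. The first 5 lines come from 3p arms and are rich in CA steps, and the next 6 come from 5p arms and are rich in TG steps.
mmu-miR-669a-3p and mmu-miR-669o-3p: aCATAACAtacacacacacgtat
mmu-miR-466a-3p and mmu-miR-466e-3p: tATACATAcacgcacacataaga
mmu-miR-466b-3p, mmu-miR-466c-3p and mmu-miR-466p-3p: aTACATACacgcacacataaga
mmu-miR-467d-3p: aTATACATacacacacctacac
mmu-miR-466i-3p: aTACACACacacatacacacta
mmu-miR-467a-5p: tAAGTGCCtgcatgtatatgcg
mmu-miR-467d-5p: tAAGTGCGcgcatgtatatgcg
mmu-miR-467e-5p: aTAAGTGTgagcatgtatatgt
mmu-miR-669c-5p: aTAGTTGTgtgtggatgtgtgt
mmu-miR-669b-5p: aGTTTTGTgtgcatgtgcatgt
mmu-miR-466i-5p: tGTGTGTGtgtgtgtgtgtg

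The 71 members held 62 distinct sequences, and 16 members shared a sequence with another member, so that the division of reads between such names is arbitrary. By seed they formed 38 groups, and 47 members shared a seed with at least 1 other. Only 3 of the 38 seeds also occurred in a mature miRNA of the table outside the families, among them AAGTGCC of miR-467a-5p, which miR-290a-3p and miR-292a-3p carry as well. The members fell into 2 sequence types. In 37 members CA and AC steps outnumbered TG and GT steps (CA type), and 34 of these were named 3p and none 5p. In the other 34 TG and GT steps were at least as many (TG type), of which 30 were named 5p and none 3p. The motif ACACAC was found in 26 members (36.6%) against 40 (2.02%) of all listed mature miRNAs, and TGTGTG in 28 members (39.4%) against 60 (3.03%), counted on the mature strand alone. Of the 71 sequences, 5 had an entry under the same name in the RefSeq table for mouse, and all 5 were identical to it.

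Members were rare in these libraries. Together they had 3485 counts, with a median of 17 and a highest value of 394 per member, and 32 members had 10 or fewer. The 12 with the highest counts held 66.9% of all member counts. Library totals ranged from 1211118 to 4316748 counts, and mature miRNA made up 0.964% to 2.13% of the neuronal counts and 5.05% to 10.35% of the glial ones. Levels are given in counts per 1000000 library counts (CPM). Among marker miRNAs, the microglial list (miR-142a-3p, miR-142a-5p and miR-223-3p, 3 of 3 found) summed to 2835 to 5914 CPM in microglia, 10.2 to 48.5 in astrocytes and 42.9 to 377 in neurons. The neuronal list (miR-124-3p, miR-128-3p and miR-138-5p) was lower in the fraction labelled neurons, at 48.7 to 229 CPM, than in the astrocyte fraction, at 1036 to 3150, so that the data do not show this fraction to be enriched for neuronal miRNAs. In KIN, replicate 1 of each fraction had 4 or 5 counts of Xist, the RNA that coats the inactive X chromosome of females, and the other 6 KIN libraries had 44 to 88, against 12 to 102 in WT. Y-linked counts were 7 to 15 in KIN replicate 1 and 2 to 6 in KIN replicates 2 and 3. In WT, replicate 2 had the fewest in each fraction (8 in astrocytes, 1 in microglia and 4 in neurons), against 10 to 26 in replicates 1 and 3. The study describes pairs of the same sex, but the counts of same-numbered KIN and WT libraries went against matched pairs, so the genotype groups may differ in sex make-up. The labels give no sex, so no values within a sex can be given, and the part of sex in the results was not tested. By a chi-square comparison of counts between libraries of a group, no library was a copy of another, and KIN replicate 1 and WT replicate 2 of the microglia, WT replicate 2 of the astrocytes and each WT neuronal library stood apart from the rest of their groups.

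In WT brain, the summed level of the members was highest in microglia and lowest in neurons. In CPM, the 3 WT microglia libraries had 91.3, 117 and 133, the astrocyte libraries 25.8, 41.0 and 30.4, and the neuronal libraries 5.78, 15.8 and 13.1. The 3 fractions did not overlap. Means were 114 ± 20.9 in microglia, 32.4 ± 7.79 in astrocytes and 11.6 ± 5.20 in neurons (SD, n = 3 for every group from here on). As a share of mature miRNA counts, microglia again led, with 0.209% ± 0.0285 against 0.0501% ± 0.000869 in astrocytes, but the neuronal share of 0.0877% ± 0.0309 lay above that of astrocytes in all 3 libraries (0.0600% to 0.121% against 0.0493% to 0.0510%). The position of the neuronal fraction thus depended on the denominator. In such bulk fractions, fewer cells of a type and less RNA per cell cannot be told apart.

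In KIN, the 2 glial fractions no longer stood apart. KIN astrocytes had 105, 87.8 and 66.9 member CPM, all above the WT astrocyte range. KIN microglia had 47.3, 76.7 and 87.3, all below the WT microglia range. The 2 KIN glial groups overlapped each other, at 86.7 ± 19.2 and 70.4 ± 20.7. As a share of mature miRNA the 3 KIN fractions came to 0.0924% ± 0.0116 in astrocytes, 0.0920% ± 0.0119 in microglia and 0.0784% ± 0.0109 in neurons, with overlapping ranges. In both glial fractions the WT and KIN ranges stayed apart on this scale. KIN neurons had 12.9 ± 1.37 CPM, within the WT range.

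**Figure D1:**
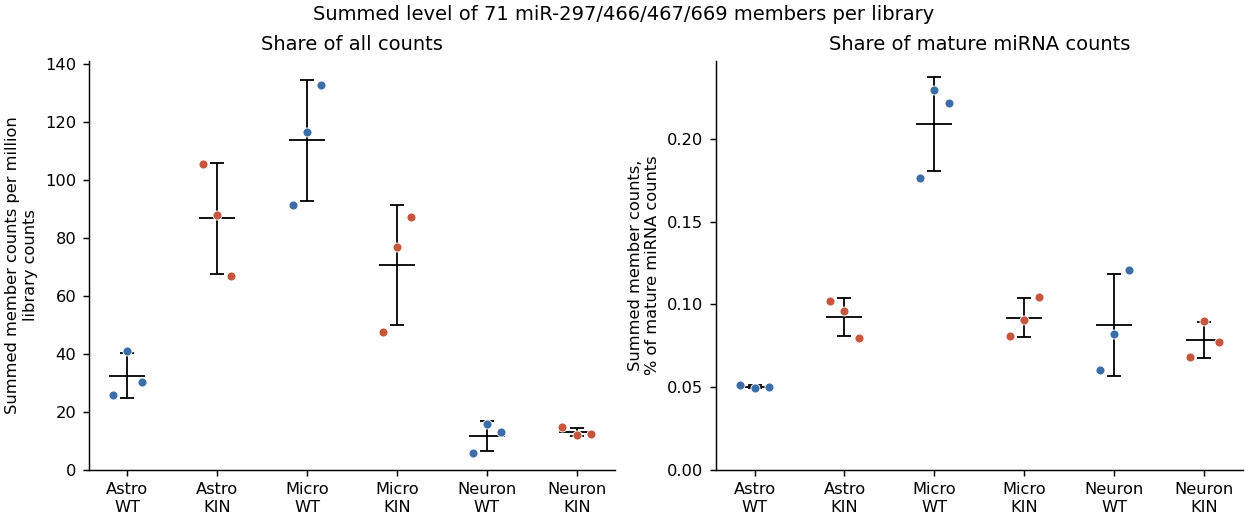
Summed level of the 71 members in each of the 18 libraries, in CPM (left) and as a percentage of mature miRNA counts (right). Points are libraries, blue for WT and red for KIN, and bars give the mean and SD of 3. WT microglia had the highest and WT astrocytes a much lower level, whereas the KIN astrocyte and microglia libraries overlapped on both scales.

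All 4 families had higher summed levels in KIN than in WT astrocytes. The 26 miR-669 members summed to 13.5 ± 3.33 CPM in WT and 36.98 ± 5.23 in KIN astrocytes, the 28 miR-466 members to 8.59 ± 1.73 and 23.6 ± 3.88, and the 11 miR-467 members to 8.99 ± 2.73 and 22.3 ± 8.70. MiR-297 with 6 members was the rarest family, at 1.24 ± 0.282 and 3.76 ± 1.63. None of these ranges overlapped between genotypes. In microglia the families differed more from each other. MiR-669 was at 42.4 ± 7.70 in WT and 23.7 ± 6.49 in KIN, and miR-466 at 39.7 ± 3.73 and 19.7 ± 3.70, both without overlap. MiR-467 was at 28.5 ± 9.52 and 24.6 ± 9.87 and miR-297 at 3.02 ± 0.720 and 2.47 ± 0.838, both with overlap.

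Because reads of near-identical copies are divided between names, members were also summed by seed. The seed CATAACA (3 members, led by miR-669o-3p) was the most abundant, at 6.73 ± 1.21 CPM in WT and 18.9 ± 2.93 in KIN astrocytes and at 30.7 ± 5.89 in WT and 11.9 ± 2.59 in KIN microglia. ATACATA (7 members, led by miR-466e-3p) was at 4.54 ± 0.945 and 10.8 ± 2.25 in astrocytes and at 19.2 ± 1.87 and 9.57 ± 1.23 in microglia. TATACAT (7 members, led by miR-467d-3p) had means of 1.77 and 5.00 in astrocytes and 12.2 and 4.71 in microglia, and TACATAC (3 members, led by miR-466b-3p) 1.02 and 4.00, and 7.34 and 3.61. In these 4 seed groups of 3p strands WT microglia lay above KIN microglia in every library, and only TATACAT overlapped between genotypes in astrocytes. The leading seeds outside the 3p arm behaved differently in microglia. AAGTGCC (miR-467a-5p) was at 3.47 ± 1.92 and 6.28 ± 2.41 CPM in astrocytes and at 5.41 ± 2.46 and 7.65 ± 3.11 in microglia, and TAAGTGT (2 members, led by miR-467e-5p) at 1.75 ± 0.926 and 5.93 ± 2.49, and 4.97 ± 2.09 and 5.82 ± 3.41. Both overlapped between genotypes in microglia, and AAGTGCC did in astrocytes too.

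Among single members, miR-669a-3p and miR-669o-3p had the highest counts. They have the same sequence, and together they held 773 counts, 22.2% of all member counts. Their summed level was 5.41, 7.79 and 6.68 CPM in WT astrocytes and 21.2, 19.8 and 15.6 in KIN astrocytes, and 24.8, 29.7 and 36.0 in WT microglia against 8.89, 13.4 and 13.0 in KIN microglia. KIN was above WT in every astrocyte library and below WT in every microglia library. In neurons the pair stood at 2.48, 3.07 and 5.24 in WT and 2.99, 3.30 and 2.47 in KIN, with overlap. Next came miR-467a-5p (257 counts), miR-467d-3p (218), miR-467e-5p (186), miR-466e-3p (184), miR-466a-3p (181), miR-466i-3p (138), miR-466d-3p (122), miR-669c-5p (114), miR-669b-5p (90) and miR-467d-5p (69).

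**Figure D2:**
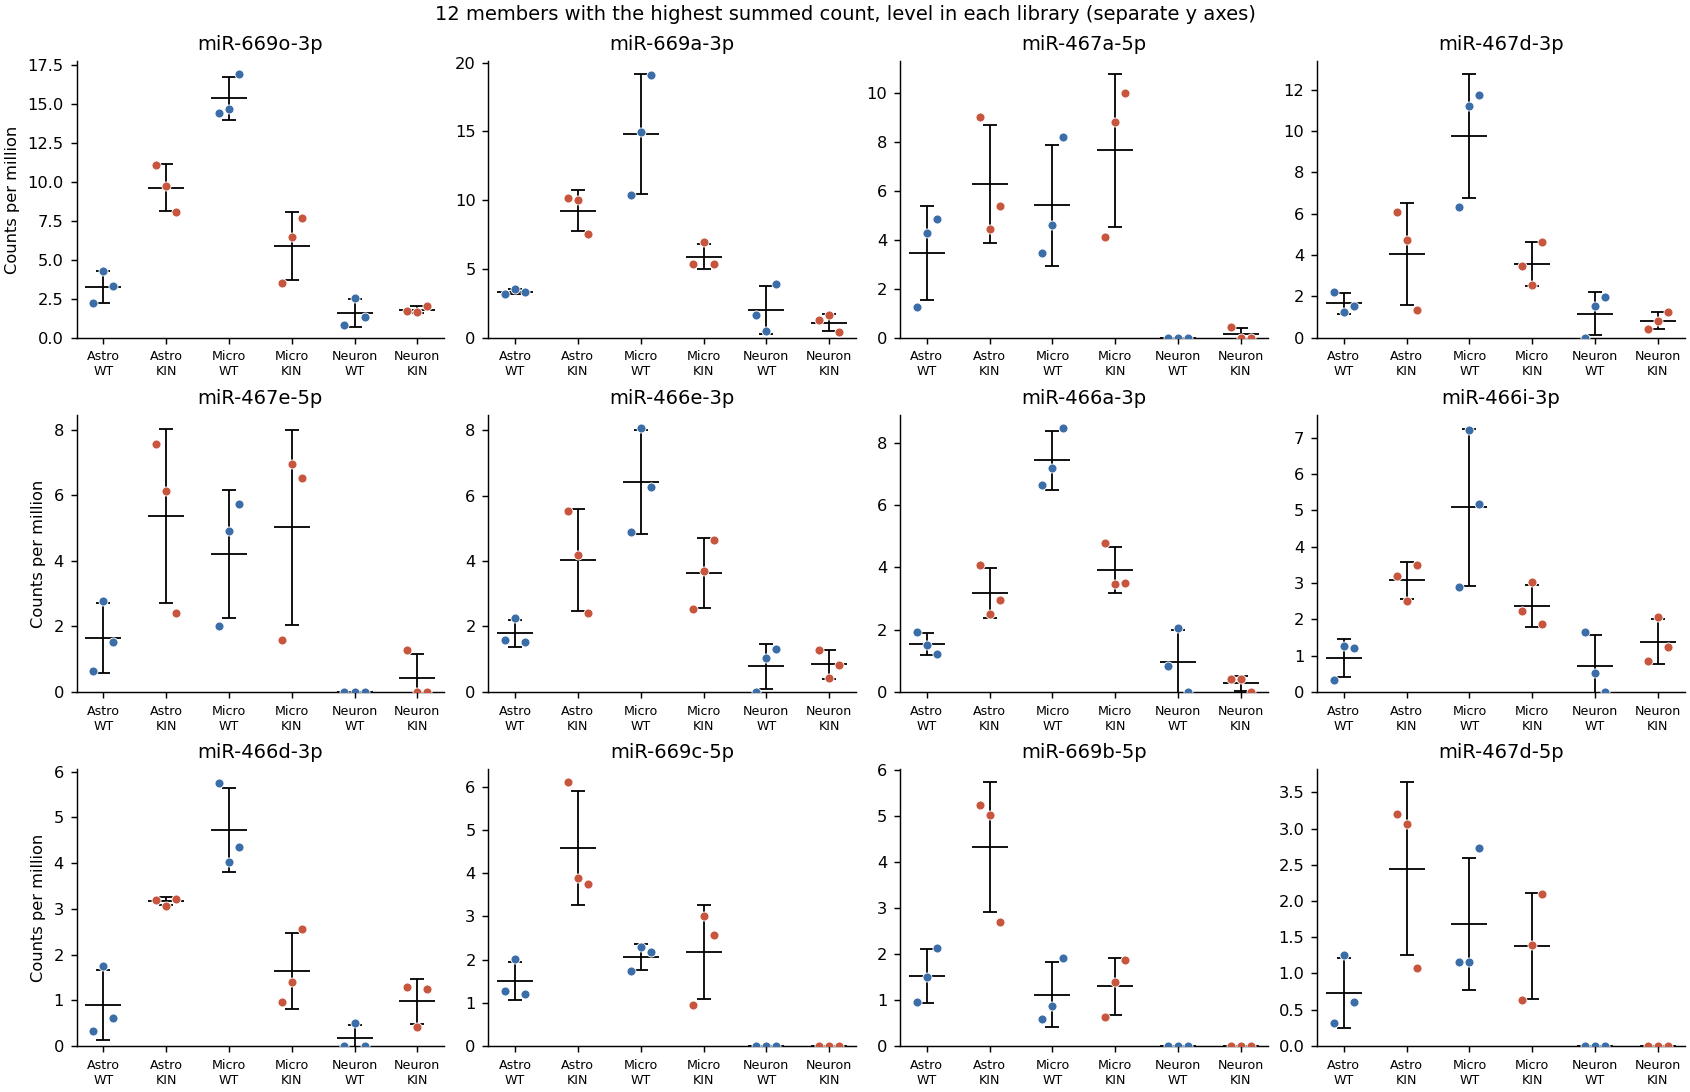
Level of the 12 members with the highest summed count, in CPM, with a separate y axis from 0 for each member. Points are libraries (blue WT, red KIN), and bars give mean and SD of 3. The 3p members peaked in WT microglia, the 5p members did not, and the 5p members were at or near 0 in both neuronal groups.

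The comparison of WT microglia with WT astrocytes was tested with edgeR over 6397 features, of which 12.2% were called higher in microglia. A call required an adjusted p no larger than 0.05 together with a log2 fold change of 1 or more in either direction. By the study's methods 1 brain gave all 3 fractions, but fits between fractions had no block for brain and treated libraries as independent. Only 24 of the 71 members had enough counts to be tested, and 15 of these passed the count filter through the microglia libraries alone, so the tally of tested members is given as a description. Of the 24, 12 were called higher and none lower. With 1 library left out there were 8 to 13 calls, among them 13 without WT astrocyte replicate 2 and 10 without WT microglia replicate 2. Among them were miR-669o-3p (log2 fold change 2.30 ± 0.40 SE, adjusted p = 0.00169), miR-669a-3p (2.25 ± 0.41, adjusted p = 0.00199), miR-467d-3p (2.68 ± 0.48, adjusted p = 0.00188) and miR-466p-3p (3.33 ± 0.60, adjusted p = 0.00187), all by edgeR. MiR-466p-3p had 11, 9 and 12 counts in microglia and 1 count in each astrocyte library, a ratio of pooled levels of 10.5 with an exact 95% counting interval of 3.28 to 53.4.

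The fraction difference was uneven between the arms. All 13 tested 3p members had a positive log2 fold change, from 1.94 to 3.57 with a median of 2.37, and 11 of the 12 called members were 3p strands. Of these 13, only miR-669a-3p, miR-669o-3p, miR-467d-3p, miR-466a-3p and miR-466e-3p passed the count filter in both fractions, at 1.94 to 2.68. The others passed through microglia alone, so their sign was partly set by the filter. Of the 5p members, miR-467a-5p and miR-467e-5p passed in both, at 0.71 ± 0.55 and 1.41 ± 0.62 without a call. Since identical sequences count more than once among these 12, reads of such members were also summed, an alternative chosen after seeing the data, which gave 8 calls among 21 tested sequences, miR-467c-5p the only 5p strand among them. The 10 tested 5p members ranged from -0.34 to 3.00 with a median of 1.08, and miR-467c-5p alone was called (3.00 ± 0.83, adjusted p = 0.0159), on 18 counts in microglia against 2 in astrocytes. MiR-467a-5p, miR-669c-5p and miR-669b-5p differed by 0.71 ± 0.55, 0.54 ± 0.52 and -0.34 ± 0.61, with adjusted p of 0.323, 0.431 and 0.682 by edgeR. Over all members, tested or not, 28 of the 34 3p strands had a higher pooled level in WT microglia and 1 a lower one, while 23 of the 30 5p strands were higher and 5 lower. Over all features tested the median log2 fold change was -0.22, and over 394 other mature miRNAs it was -0.43.

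Apart from miR-466i-5p, the TG type was nearly absent from the neuronal libraries, with 1 count in WT and 6 in KIN. Of 11 TG-type counts in the 3 WT neuronal libraries, 10 belonged to miR-466i-5p, a plain TG repeat, and of 23 in KIN neurons 17 did. MiR-466i-5p has its hairpins outside Sfmbt2 and matches the genome at 2423717 places when overlapping copies are counted, so its reads cannot be assigned to 1 locus. MiR-467a-5p had 0 counts in all 3 WT neuronal libraries, against 4, 17 and 16 in WT astrocytes and 12, 16 and 30 in WT microglia. With 3 counts over the group as the floor, it was at least 5.56-fold lower than in astrocytes and at least 8.55-fold lower than in microglia. MiR-467e-5p, also at 0, was at least 2.70-fold and at least 6.64-fold lower. These bounds are per library total. Mature miRNA was 0.964% to 1.93% of WT neuronal and 5.05% to 8.31% of WT glial counts, so bounds per mature miRNA count would be smaller.

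Of the 8 members tested between WT neurons and WT astrocytes, all of which passed the filter through the astrocyte libraries alone, 2 were called lower in neurons (miR-467a-5p, adjusted p = 0.0228, and miR-669b-5p, adjusted p = 0.0427, by edgeR) where 18.5% of all features were. Among 354 other mature miRNAs 210 were called lower, with a median log2 fold change of -2.67. Between WT neurons and WT microglia, 17 of 22 tested members were called lower in neurons where 14.5% of all features were, and again all 22 had passed through the microglia libraries alone. Among 321 other mature miRNAs 181 were called lower, with a median of -2.39, so lower levels in neurons were common to mature miRNAs. Of the 17 members, miR-669o-3p was at -3.37 ± 0.54 (adjusted p = 0.00171), and miR-466d-3p had 1 neuronal count against 50 in microglia, a ratio of 22.1 with a counting interval of 3.79 to 891. MiR-297c-5p, miR-466b-3p, miR-466g, miR-467b-5p, miR-467c-5p and miR-669c-5p had no count in WT neurons and were at least 2.21-fold to 3.69-fold lower per library total. With scaling by mature miRNA in place of all features, none of the 8 members was called against astrocytes, and against microglia 2 members were called lower and 1 higher. Against astrocytes no member was called without astrocyte replicate 2 or 3 or neuronal replicate 3, and 1 was without neuronal replicate 1 or 2, while against microglia 9 were called without neuronal replicate 3 and 11 without microglia replicate 2.

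In astrocytes, members were more abundant in KIN than in WT. Each KIN library detected 46 to 48 of the 71 members, against 28 to 36 in WT. Over all 71 members, 52 had a higher pooled level in KIN, 10 a lower one and 9 no count in either group. Of these, 26 of the 30 5p strands and 23 of the 34 3p strands were higher, and 3 and 5 were lower.

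With edgeR over 5694 features, 1.79% were called higher in KIN astrocytes, and 3 of the 20 tested members were. MiR-669a-3p had 3.18, 3.52 and 3.34 CPM in WT and 10.2, 10.0 and 7.52 in KIN (log2 fold change 1.58 ± 0.32, adjusted p = 0.0173). MiR-669o-3p had 2.23, 4.27 and 3.34 against 11.1, 9.75 and 8.06 (1.65 ± 0.35, adjusted p = 0.0219). Since both have 1 sequence, they count as 1 observation, and with their reads summed the change was 1.62 ± 0.29 (adjusted p = 0.0116). MiR-669c-5p had 1.27, 2.01 and 1.21 against 6.11, 3.90 and 3.76 (1.69 ± 0.43, adjusted p = 0.0377). In all 3 the KIN libraries lay above every WT library. MiR-669c-5p, with 4, 8 and 4 counts in WT, passed the count filter through the KIN libraries alone.

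The other tested members had positive log2 fold changes without a call, from 0.11 ± 1.01 for miR-467b-5p to 2.87 ± 0.94 for miR-467c-5p (adjusted p = 0.952 and 0.0686 by edgeR). MiR-467c-5p had 2 counts in WT and 16 in KIN, a ratio of 7.75 with a counting interval of 1.82 to 69.5. Among the members with more counts, miR-466d-3p had 0.318, 1.76 and 0.607 CPM in WT and 3.20, 3.07 and 3.22 in KIN (1.83 ± 0.56, adjusted p = 0.0595), and miR-466i-3p 0.318, 1.26 and 1.21 against 3.20, 2.51 and 3.49 (1.77 ± 0.52, adjusted p = 0.0530). MiR-669b-5p and miR-467e-5p were at 1.59 ± 0.47 and 1.76 ± 0.58 (adjusted p = 0.0530 and 0.0693). MiR-466b-3p, miR-466c-3p and miR-466p-3p, which have 1 sequence, were at 1.61 ± 0.86, 2.36 ± 0.81 and 1.95 ± 0.81 without a call, but with their reads summed the change was 2.02 ± 0.47 and passed both thresholds (adjusted p = 0.0290 by edgeR). On the TMM-scaled level of the fit, libraries did not overlap, with KIN higher, in 14 of the 20 tested members and in 14.8% of all features tested. Of the 20, 11 passed the count filter through the KIN libraries alone, so this tally was partly set by the filter and is a description. MiR-466d-3p (1, 7 and 2 counts in WT) was 1 of the 11, and the summed sequence of miR-466b-3p (3, 6 and 2) also passed only through KIN.

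The 20 tested members, with identical sequences counted by name, had a median log2 fold change of 1.63, with medians of 1.64 for 10 5p and 1.63 for 10 3p strands. All features tested had a median of -0.19 and 398 other mature miRNAs one of 0.56, of which 44 were called higher and 9 lower. Of the 20, 11 passed the filter through the KIN libraries alone, 8 through both genotypes and 1 through neither alone. Mature miRNA as a whole was 5.05% to 8.31% of WT and 8.43% to 10.35% of KIN astrocyte counts, and with scaling by mature miRNA none of the 3 members was called (median 0.99, with all features at -0.91). The 3 calls were also lost when any 1 library other than WT replicate 2 was left out, and without WT replicate 2, which had 102 Xist counts against 33 and 25 in the other WT astrocyte libraries, there were 12. The microglial marker sum was 10.2 to 12.6 CPM in WT and 25.0 to 48.5 in KIN astrocytes, and the oligodendrocyte sum (miR-219a-2-3p and miR-338-3p) 830 to 1496 and 1510 to 2148. Their part in the result was not tested.

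In microglia, the 2 sequence types differed in how their summed levels stood between genotypes. The CA-type members summed to 68.8, 88.1 and 93.5 CPM in WT and 30.2, 36.1 and 42.1 in KIN, so that every KIN library was below every WT library. The TG-type members summed to 22.5, 28.5 and 39.3 in WT and 17.2, 40.5 and 45.2 in KIN, with overlap. Without KIN replicate 1, which had the value of 17.2, the other KIN libraries were above all WT ones in CPM for the TG type. They were still below them for the CA type. For the TG type this order depended on the denominator. KIN replicates 2 and 3 had 175 and 194 TG-type counts among 364960 and 359067 mature miRNA counts. WT replicates 2 and 3 had 99 and 144 among 176629 and 219755, a larger share, and WT replicate 1 had 78 among 179560, a smaller one. In astrocytes both types were higher in KIN, at 17.1 ± 2.45 in WT and 45.5 ± 7.39 in KIN for the CA type and at 15.3 ± 5.78 and 41.2 ± 11.99 for the TG type.

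The TG type made up 24.6%, 24.4% and 29.6% of member counts in the WT microglia libraries, with exact 95% intervals of 19.96% to 29.7%, 20.3% to 28.9% and 25.6% to 33.8%. In KIN microglia its share was 36.2%, 52.9% and 51.7%, with intervals of 28.5% to 44.5%, 47.3% to 58.3% and 46.6% to 56.9%. The shares did not overlap between genotypes, although the interval of KIN replicate 1 reached into those of WT. In astrocytes the share was 37.04%, 51.5% and 50% in WT and 50.8%, 46.0% and 44.2% in KIN, with overlap.

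**Figure D3:**
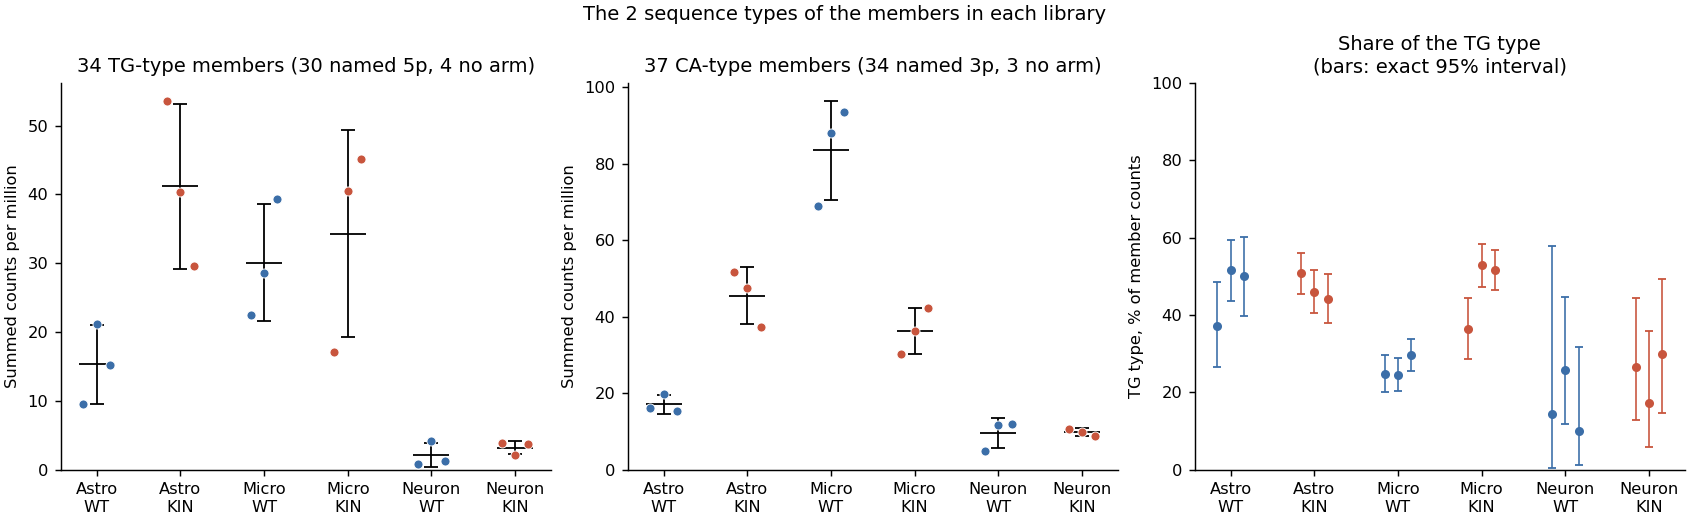
Summed CPM of the TG-type members (left) and of the CA-type members (middle), and the share of the TG type in all member counts (right), in each library. Points are libraries (blue WT, red KIN), bars on the left and middle give mean and SD of 3, and bars on the right give the exact 95% interval of each share. The CA type was lower in every KIN microglia library than in WT, the TG type overlapped, and the TG share was at most 29.6% in WT and at least 36.2% in KIN microglia.

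By edgeR over 4940 features, 4.35% were called in microglia, and none of the 27 tested members was, with 7 of them at an unadjusted p under 0.05 and 0 calls by DESeq2. MiR-669o-3p had 14.4, 14.7 and 16.9 CPM in WT and 3.49, 6.49 and 7.68 in KIN (-1.16 ± 0.32, adjusted p = 0.0720). MiR-669a-3p had 10.4, 15.0 and 19.1 against 5.40, 6.95 and 5.35 (-1.11 ± 0.33, adjusted p = 0.0836). With the reads of this pair summed, an alternative chosen after seeing the data, the change was -1.14 ± 0.28 and passed both thresholds (adjusted p = 0.0489). MiR-466p-3p, with 11, 9 and 12 counts in WT and 1, 2 and 5 in KIN, was at -1.90 ± 0.55 (adjusted p = 0.0776). It shares its sequence with miR-466b-3p (-0.45 ± 0.57) and miR-466c-3p (-0.17 ± 0.49), and the division of reads between these names is arbitrary. With their reads summed the change was -0.80 ± 0.35, without a call (adjusted p = 0.195 by edgeR). MiR-467d-3p was at -1.24 ± 0.42 and miR-466d-3p at -1.27 ± 0.47 (adjusted p = 0.105 and 0.131).

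All 13 tested 3p members had a negative log2 fold change, from -1.90 to -0.17 with a median of -0.91, and of the 13 tested 5p members 11 had a positive one, with a median of 0.45. Identical sequences count more than once among the 13 3p names. With reads summed, miR-669a-3p and miR-669o-3p were at -1.14 ± 0.28, miR-466a-3p and miR-466e-3p at -0.66 ± 0.30, and miR-466b-3p, miR-466c-3p and miR-466p-3p at -0.80 ± 0.35. The lowest value of a tested member was that of miR-466i-5p (-2.60 ± 0.90, adjusted p = 0.114), with 15 counts in the WT and 2 in the KIN group, and the highest was that of miR-669o-5p (1.63 ± 0.71, adjusted p = 0.183). MiR-467a-5p, the 5p member with the most counts, had 3.46, 4.61 and 8.18 CPM in WT and 4.13, 8.80 and 10.0 in KIN (0.71 ± 0.42, adjusted p = 0.351), with overlap. Among other mature miRNAs, 163 5p strands had a median of 0.54 and 175 3p strands one of 0.44, and all features had -0.11. Over all members, 27 of the 34 3p strands had a lower pooled level in KIN and 1 a higher one, while 16 of the 30 5p strands were higher and 11 lower. TMM-scaled KIN levels lay below all WT levels in 8 tested members, as in 13.8% of all features, and above them in 1, as in 13.2%. Of the 27 tested members, 17 passed the filter through both genotypes, 5 through WT alone and 4 through KIN alone. Without WT replicate 2, 3 members (miR-669o-3p, miR-466p-3p and miR-466i-5p) were called lower, of which miR-466p-3p holds only part of the reads of its sequence. The microglial marker sum was 2835 to 3389 CPM in WT and 3097 to 5914 in KIN. Sums of other lists did not overlap, namely neural lineage (miR-9-5p and miR-9-3p, 82.3 to 244.6 in WT and 59.1 to 68.6 in KIN), neurons (60.8 to 159 and 47.0 to 55.1), mural cells (145 to 202 and 59.4 to 136), oligodendrocytes (19.3 to 21.5 and 22.6 to 32.7) and red blood cells (17.3 to 22.2 and 28.6 to 131). Their part in the result was not tested. Mature miRNA was 5.09% to 5.99% of WT and 5.86% to 8.46% of KIN microglia counts, and with scaling by it 4 members, all 3p, were called lower, with all features at a median of -0.53.

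The difference between the KIN effects in microglia and in astrocytes was tested as an interaction over the 12 glial libraries. This fit had no block for brain, although by the study's methods 1 brain gave both glial fractions. Of 7053 features, 0.198% were called lower in microglia, and 2 of the 28 tested members were. These were miR-669a-3p (-2.69 ± 0.50, adjusted p = 0.0333) and miR-669o-3p (-2.79 ± 0.53, adjusted p = 0.0333), again 1 sequence, for which the summed reads gave -2.76 ± 0.44 (adjusted p = 0.0262). The next members were miR-466p-3p at -3.83 ± 0.89 and miR-466d-3p at -3.08 ± 0.74 (adjusted p = 0.0685 and 0.0768, both without a call). MiR-466b-3p and miR-466c-3p, which have the sequence of miR-466p-3p, were at -2.03 ± 1.01 and -2.51 ± 0.89. The 13 tested 3p members ranged from -3.83 to -1.10 with a median of -2.65, and the 14 tested 5p members from -2.28 to 0.83 with a median of -1.25, beside a median of -0.07 over all features and -0.23 over 449 other mature miRNAs. Among the 13 3p names identical sequences count more than once. MiR-467a-5p differed by -0.21 ± 0.69 (adjusted p = 0.978). No member was called when 1 library was left out, except without WT replicate 2 of the astrocytes (3 calls), WT replicate 2 of the microglia (4 calls) or KIN replicate 1 of the microglia (2 calls).

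**Figure D4:**
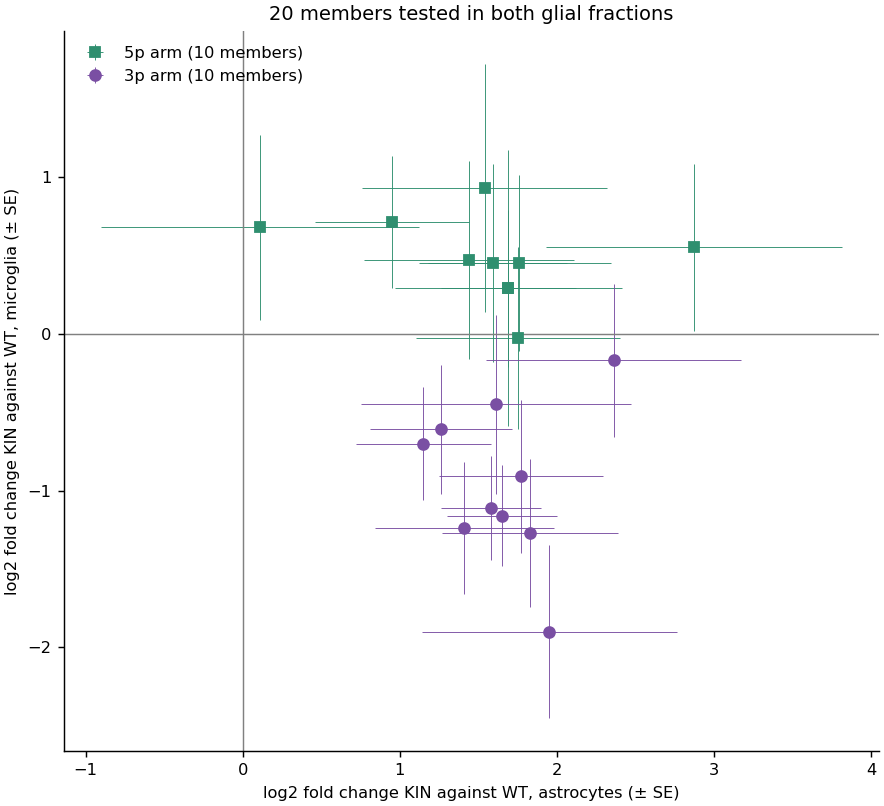
Log2 fold change of KIN against WT in astrocytes (x axis) and in microglia (y axis) for the 20 members tested in both, 10 from each arm, with SE bars. All 20 lie to the right of 0, and 11 of them passed the count filter in astrocytes through the KIN libraries alone. Members of identical sequence are shown as separate points. In microglia the 3p members (circles) lie between -1.90 and -0.17, and the 5p members (squares) between -0.03 and 0.93.

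In the neuronal fraction no difference between KIN and WT was detectable at this depth. The 3 WT libraries had 7, 31 and 20 member counts and the KIN libraries 34, 29 and 30, and 43 of the 71 members had no count in either group. By edgeR 0% of 4535 features were called, with 197 at an unadjusted p under 0.05, and DESeq2 called 0 members. Only 2 members could be tested, miR-669o-3p (0.13 ± 0.73, adjusted p = 0.988) and miR-466i-5p (0.20 ± 0.69, adjusted p = 0.974). MiR-466i-5p had 0.826, 3.58 and 1.31 CPM in WT and 2.13, 1.65 and 3.30 in KIN neurons, against 0.184 ± 0.164 in KIN microglia.

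Reads that were not placed on a mature miRNA could still be counted on hairpin transcripts in a later round, and these are different reads from those above. Of 57 hairpin rows of the 4 families in the table, 53 had a count, with 1519 counts in all. Summed over the rows, WT astrocytes had 12.4, 19.6 and 15.8 CPM and KIN astrocytes 54.1, 42.9 and 34.1. WT microglia had 39.2, 46.1 and 48.5 and KIN microglia 19.7, 34.1 and 37.2, again without overlap. Neurons had 2.06 to 4.54. The KIN ranges overlapped between astrocytes and microglia, and the WT ranges did not, as for the mature strands.

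In astrocytes all 11 tested hairpins had a positive log2 fold change (median 1.45). None of the 11 reached 5 counts in 2 WT libraries, so this shared sign was partly set by the count filter. Mir669c (1.68 ± 0.42, adjusted p = 0.0358) and Mir669m-1 (2.12 ± 0.59, adjusted p = 0.0443) were called higher by edgeR, where 1.79% of all features were. Both passed the filter through the KIN libraries alone, with 4, 7 and 4 and with 3, 1 and 2 counts in WT. In microglia none of 13 was called, with a median of -0.42 and 4 positive values. Between the WT glial fractions 2 of 11 were called higher in microglia (Mir466d, 1.81 ± 0.62, and Mir467c, 2.20 ± 0.78, adjusted p = 0.0415 and 0.0475), where 12.2% of all features were. Both had passed the filter through the microglia libraries alone. In the interaction none of 20 was called. Mir467e and Mir669c had the most counts, 149 and 106, followed by Mir297c and Mir466d with 74 each. They lie 44.3, 47.9, 47.6 and 50.5 kb into the intron.

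**Figure D5:**
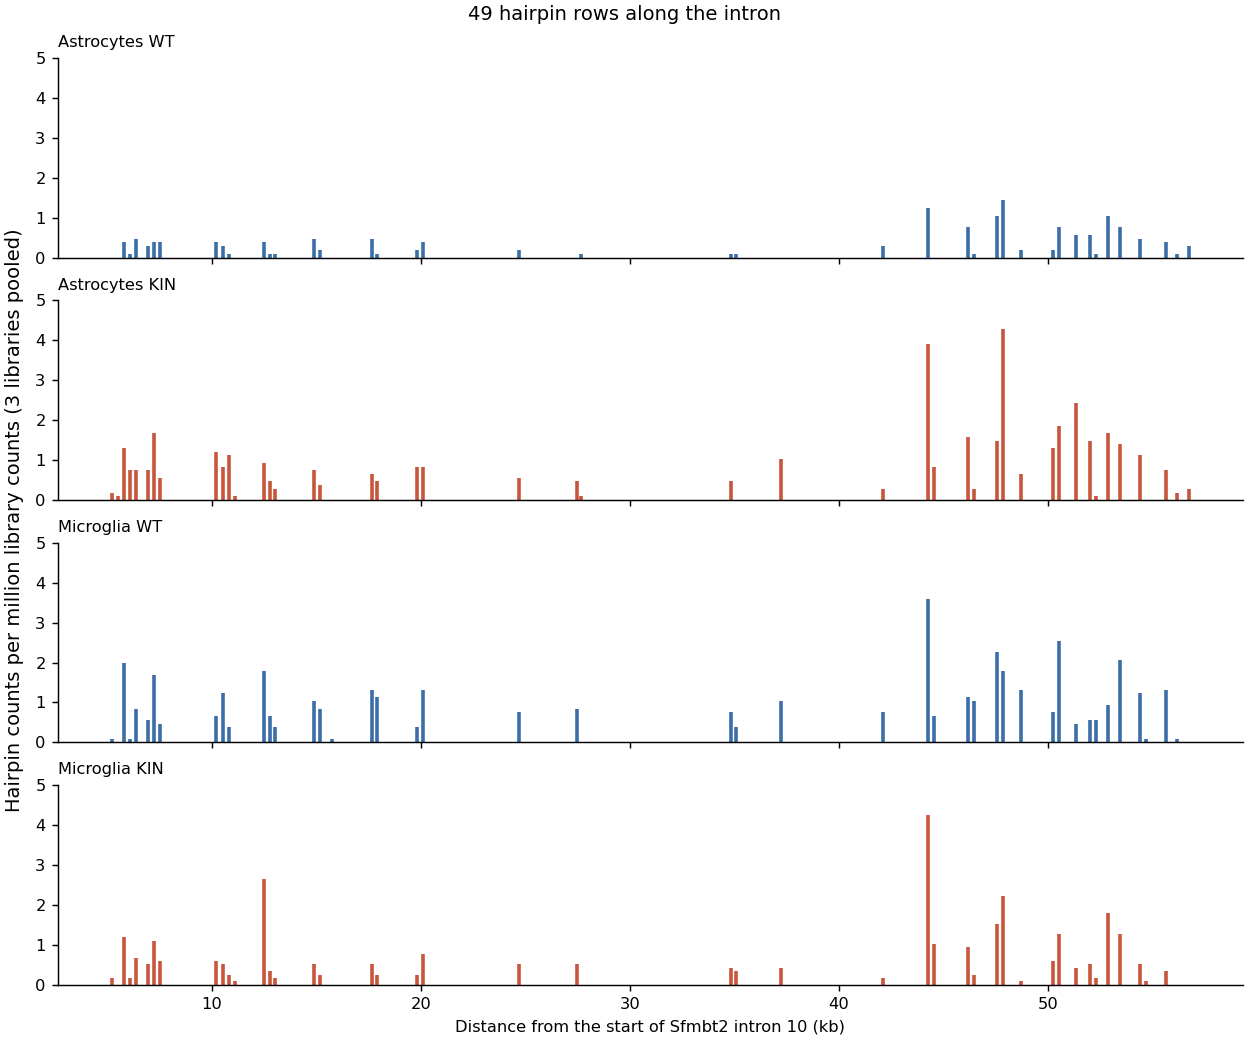
CPM of 49 hairpin rows placed by their distance from the start of Sfmbt2 intron 10, pooled over the 3 libraries of each glial group (blue WT, red KIN). The tallest bar of each group lies beyond 40 kb, at Mir467e or Mir669c.

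The host gene itself was hardly measured. The 7 Sfmbt2 transcripts of the table had 3 counts in all 18 libraries, so that no comparison of the host transcript was possible in these small RNA libraries. Fragments of transcripts for 20 genes that make, carry or use miRNAs, such as Drosha, Dgcr8, Dicer1 and the Argonautes, gave 2809 counts over 131 transcripts. Of the 8 tested in astrocytes, 9 in microglia and 6 in neurons, none was called between KIN and WT. Between WT microglia and WT astrocytes 1 of 8 tested was called higher in microglia, where 12.2% of all features were. It was a transcript of Tut7, a terminal uridylyltransferase (1.38 ± 0.41, adjusted p = 0.0237 by edgeR).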

How the data were processed

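The authors trimmed reads with cutadapt 4.6, placed them with Bowtie2 2.4.4 in successive rounds that began with mature miRNA and ended with mm39 transcripts, and counted with HTSeq 2.0.2 without strand. The deposited counts used here are whole reads per feature, not normalized. The kit adds molecular identifiers, but their use for these libraries is not given in the sources used here, so intervals and floors (3 counts) cover counting error only. Near-identical copies share a pool of reads, and without strand a TG-rich read and its CA-rich complement cannot be told apart. A further 36 per-library columns and the authors' fold changes and p-values were not used.

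Groups came from the titles. Nothing in the labels ties a replicate number to a brain, so p-values measure the spread between libraries. Fits between fractions treated libraries of 1 brain as independent. Features reaching 5 counts in 2 or more fitted libraries were tested with edgeR 4.0.16 (quasi-likelihood, TMM factors, R 4.3.3), with Benjamini-Hochberg adjustment over all features and calls at an adjusted p no larger than 0.05 with a log2 fold change of 1 or more in either direction. Each pair of groups was fitted alone, the interaction used 12 libraries, and comparisons share libraries. The procedure was tested on simulated data. Levels are CPM of the library total. Alternatives were DESeq2 1.42.0, other scalings and filters, a replicate block, leaving out libraries and 1 joint fit. Named were the 12 members with the highest counts, called members (up to 10 per comparison), the leading member of the 6 largest seed groups, and the highest and lowest KIN change per fraction. Members, lists and comparisons were chosen with earlier results of these data known.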

Additional observations from a re-analysis of the deposited data

Results flagged for a closer look

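The KIN effect differed between microglia and astrocytes for miR-669a-3p (difference of the log2 fold changes -2.69 ± 0.50, adjusted p = 0.0333) and for miR-669o-3p (-2.79 ± 0.53, adjusted p = 0.0333), by the interaction term of edgeR. KIN was higher than WT in 3 of 3 astrocyte libraries and lower in 3 of 3 microglia libraries. Both names stand for 1 sequence, so this is 1 observation. The fit treated both glial fractions of 1 brain as independent. No member was called when 1 library was left out, except without WT replicate 2 of the astrocytes (3 calls) or of the microglia (4 calls) or KIN replicate 1 of the microglia (2 calls).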

How the results depend on the processing

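With TMM factors from mature miRNA alone, member calls fell to 0 in KIN astrocytes (median log2 fold change 0.99), rose to 4 in KIN microglia (median -0.68), and came to 0 for WT neurons against astrocytes, where the median reversed to 1.06, and to 3 for WT neurons against microglia (median -1.78). As a share of mature miRNA, the log2 ratio of the summed level was 0.88 in astrocytes and -1.19 in microglia, against 1.42 and -0.69 per library total. DESeq2 called 1 member between WT neurons and astrocytes and 10 between WT neurons and microglia (median -2.69), and gave a median of 1.71 for WT microglia against astrocytes, where no filter gave 1.95. With at least 10 counts in 3 libraries, 7, 0 and 8 members were called in the 3 WT comparisons (microglia against astrocytes, neurons against astrocytes, neurons against microglia, the last with a median of -2.85), the KIN microglia median was -1.01, and neurons had no member to test between genotypes. The joint fit of 18 libraries called 1 member in KIN astrocytes. Summing members of identical sequence, chosen after seeing the data, gave 1 call in KIN microglia and 1 in the interaction, 3 among 17 tested sequences in KIN astrocytes and 8 among 21 for WT microglia against astrocytes.

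With each library left out in turn there were 0 to 12 calls in KIN astrocytes (median 1.39 to 1.98), 0 to 3 in KIN microglia, 0 to 3 for WT neurons against astrocytes (median -1.93 to -0.73), 9 to 13 for WT neurons against microglia (median -5.04 to -3.12) and 0 to 4 in the interaction (median -2.33 to -1.64). For WT microglia against astrocytes there were 8 to 13 calls, and the median ran from 1.87 to 2.55. The 3 calls in KIN microglia came without WT replicate 2. The calls of WT neurons against astrocytes went to 0 without WT astrocyte replicate 2 or 3 or neuronal replicate 3, and those against microglia to 9 without neuronal replicate 3 and 11 without microglia replicate 2. The causes were not tested.

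With the replicate number as a block, 7 members were called in KIN astrocytes, 1 between WT neurons and astrocytes, 15 between WT microglia and astrocytes, 13 between WT neurons and microglia and 2 in the interaction. Across features, deviations of same-numbered KIN and WT libraries correlated at -0.214 to 0.154, and 1 of 18 libraries was closest to its own number. Between fractions, for which the study's methods name a single brain but no number, the correlations were 0.292, 0.344 and 0.0279 for WT astrocytes and microglia, 0.105, 0.279 and 0.086 for WT astrocytes and neurons, 0.0894, 0.22 and 0.0246 for WT microglia and neurons, and -0.206, -0.162 and -0.0139 for KIN astrocytes and microglia. None of these sets had all 3 over 0.1, and the numbers were not taken as pairs, though such a check cannot exclude a shared brain. Xist counts of KIN astrocytes, microglia and neurons were nonetheless alike by number, at 5, 4 and 5 for replicate 1, 47, 44 and 56 for replicate 2, and 83, 61 and 88 for replicate 3. Libraries of 1 number may therefore come from 1 brain. The study's methods took all 3 fractions from a single brain. The fits between fractions and the interaction, without a block, thus treated libraries of 1 brain as independent. Seed groups numbered 35 with bases 2 to 7. Depth limits the tests, since 51 of 71 members could not be tested in astrocytes, 44 in microglia and 69 in neurons.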

Other observations

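Other mature miRNAs that hold the motifs of the cluster were few among those tested. Of 28 with TGTGTG outside the 4 families, 4 were tested in astrocytes, where all 4 had a positive KIN change and 1 was called higher, and 3 in microglia, all positive and none called. Of 11 with ACACAC, 3 were tested in each glial fraction. In astrocytes 2 were called higher in KIN, and in microglia none was called, with 1 positive and 2 negative values.

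Hairpins with both arms in the table differed in which arm had more counts. For miR-669a and miR-669o the 3p strand led in each glial group, and for miR-467a, miR-467e and miR-669c the 5p strand did. MiR-467d-3p had 104 counts in WT microglia and 42 in KIN, and its partner miR-467d-5p had 18 and 17. Since the same mature sequence can come from several hairpins, these are counts per sequence and not per hairpin.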
